A study of Mus musculus with 6 samples.

Results

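The genes of mitochondrial ribosomal proteins were compared between blood monocytes of thrombocytopenic mice and of control mice by RNA sequencing. Members were taken by name: a symbol starting with Mrpl (large subunit) or Mrps (small subunit), then a number, then at most 1 of the letters a, b or c. This rule found 78 of the 56832 genes listed, 49 for the large and 29 for the small subunit. It uses names only, but it was chosen with earlier results of these data known. Enough counts for a test were present for 77 of them, all but Mrpl53. Of the tested members, 16 rose, 4 fell and 57 did not pass the test (26.0% passed, against 45.1% of all tested genes), and the changes that passed ranged from -16.3% (Mrpl14) to 17.6% (Mrps21).

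The thrombocytopenic group (3 libraries, replicates 1 to 3) carried the genotype PF4cre-iDTR. In this genotype the Pf4 promoter, which is active in megakaryocytes, drives Cre, and Cre switches on a receptor for diphtheria toxin, so that the toxin kills the cells that carry it. The control group (3 libraries, replicates 1 to 3) was labelled WT, and mice of both groups received diphtheria toxin according to the labels. Genotype and platelet state therefore cannot be told apart, and activity of the Cre in the monocytes themselves was not tested. RNA of Pf4 itself stood at 909.4 to 951.4 CPM (counts scaled to a common library size) in control and at 1073 to 1140 CPM in thrombocytopenic libraries. The sources used here do not give the age of the mice, the toxin schedule, how monocytes were isolated, or whether each library came from 1 animal or a pool. The p-values thus set the group difference only against the spread among the 3 libraries within each group, and that spread may be technical.

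The libraries held 24842319 to 37552029 counts each. The cell type label was checked against 12 defining genes of monocytes and macrophages, Csf1r and Ly6c2 among them. All 12 were expressed, and their summed level was 19190 to 19600 CPM in control and 21720 to 21940 CPM in thrombocytopenic libraries. T and NK cell genes summed to at most 1.14 CPM, with Cd3d, Cd3e and Cd3g at 0 in all 6 libraries. Of 12 genes of dividing cells, 11 were lower in thrombocytopenic libraries, with sums of 682.3 to 706.7 CPM against 899.6 to 914 CPM. All 5 tested dendritic cell genes of 7 and all 5 tested basophil and mast cell genes of 7 were lower as well, with sums of 226.5 to 233.7 against 303.3 to 320 CPM and of 0.348 to 0.637 against 7.25 to 8.83 CPM. Bst2 made up most of the dendritic cell sum, at 209.6 to 216.8 CPM in thrombocytopenic and 268.6 to 289.4 CPM in control libraries. Of 6 tested neutrophil genes, Mmp8 rose (219.1 to 232.8 CPM in controls, 317.1 to 327.2 CPM in thrombocytopenic libraries) and made up nearly all of the list's sum of 232.7 to 248.2 against 326.6 to 337.7 CPM; Ngp fell and the other 4 had negative values that did not pass. Of 7 tested platelet genes, Pf4 and Ppbp rose and made up nearly all of the sum of 1012 to 1058 against 1222 to 1295 CPM, while the other 5 fell, Nrgn from 3.24 to 3.97 CPM to at most 0.0536 CPM. The part of these cell type genes in the values that follow was not tested. In bulk RNA, fewer cells of a type and less RNA per cell cannot be told apart.

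The mitochondrial ribosome translates the few proteins that mitochondrial DNA encodes, all of them parts of the respiratory chain and of ATP synthase. Its large and small subunit RNAs are transcribed from mitochondrial DNA, while every one of its proteins is encoded in the nucleus, made in the cytosol and imported. Part of these proteins descend from those of the bacterial ribosome, and the others were added in the mitochondrial lineage. Many nuclear genes for mitochondrial proteins have promoters with sites for the transcription factors NRF1, GABP (of the ETS family) and YY1.

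Promoter sequences show what the members share at the DNA level. RefSeq sequences (GRCm38.p6) from 250 bases before to 50 bases after the start site were matched by symbol for 69 of the 78 members, which gave 75 promoters since 3 members had several. Both strands were searched for CCGGAAG (ETS core), for AAGATGGCG (YY1 core) and for the NRF1 core, which is GCGCA and GCGC with 1 base of any kind between them. The ETS core was found in 26 member promoters (34.7%), against 18.2% of the promoters of all tested genes and 8.86% of all 32851 promoters. The NRF1 core was found in 13 (17.3%), against 10.2% and 4.6%, and the YY1 core in 8 (10.7%), against 3.12% and 1.4%. At least 1 of these motifs was present in 41 member promoters (54.7%, against 28.3% and 13.6%); 6 held more than 1 of them, and in none of the 75 did matches of different motifs overlap. TATAAA was found in 6.67% of member promoters, 7.17% of those of tested genes and 13.6% of all. By subunit, the ETS core was in 31.2% of large and 40.7% of small subunit promoters, the NRF1 core in 20.8% and 11.1%, and the YY1 core in 8.33% and 14.8%.

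Of the 20 members whose RNA passed the test, 18 had exactly 1 listed promoter, and 7 of these had a match before the start site. These 7 stretches are printed because they belong to genes that rose (Mrpl45, Mrpl9, Mrps21, Mrpl52, Mrps18c) and to genes that fell (Mrpl17, Mrpl36). Each runs 5′ to 3′ on the strand of the gene with up to 20 bases on each side, and capitals mark the motif in either orientation: the NRF1 core in the first 4, the ETS core in the next pair, the YY1 core in the last.
Mrpl45 (chr11:97315658-97315707, plus strand): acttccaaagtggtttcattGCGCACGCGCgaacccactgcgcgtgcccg
Mrpl9 (chr3:94443288-94443335, plus strand): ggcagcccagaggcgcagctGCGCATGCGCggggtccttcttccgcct
Mrps21 (chr3:95871576-95871625, minus strand): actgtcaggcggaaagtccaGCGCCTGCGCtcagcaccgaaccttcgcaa
Mrpl17 (chr7:105811107-105811156, minus strand): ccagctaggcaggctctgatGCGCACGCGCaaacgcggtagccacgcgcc
Mrpl52 (chr14:54426842-54426888, plus strand): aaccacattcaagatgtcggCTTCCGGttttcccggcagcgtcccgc
Mrps18c (chr5:100798583-100798629, plus strand): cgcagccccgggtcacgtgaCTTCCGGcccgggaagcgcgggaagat
Mrpl36 (chr13:73330958-73331006, plus strand): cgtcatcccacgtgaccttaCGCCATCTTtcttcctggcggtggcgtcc

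The NRF1 core thus lay before the start of genes that moved in opposite directions, Mrpl45 and Mrpl17 among them. Over all members with a promoter, the ETS core was in 36.4% of the promoters of members that passed the test and 32.7% of those that did not, the NRF1 core in 27.3% and 13.5%, and the YY1 core in 9.09% and 11.5%. These shares count promoters, 22 from 19 members that passed and 52 from 49 that did not. As 18 of the 19 had 1 promoter each, a member with several weighs more in the shares of those that passed. The shares describe letters in a window and were not tested.

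The comparison of the groups asks how the RNA of these monocytes differed between mice with and without thrombocytopenia. Of the 77 tested members, 16 rose and 4 fell (20 in all, 26.0%; edgeR quasi-likelihood test, adjusted p under 0.05), where 45.1% of all 12488 tested genes passed, 22.4% as higher and 22.7% as lower. With upper quartile scaling the split was 10 higher and 6 lower. In the main fit, 44.8% passed among the 6325 genes within the members' range of mean level. The median log2 fold change, thrombocytopenic over control, was 0.04 over the members (range -0.26 to 0.23) and -0.001 over all tested genes (quartiles -0.19 and 0.13), with 46 members above 0 and 31 below. A change of at least 1.3-fold with an adjusted p under 0.05 was seen in 0 members by edgeR, DESeq2 or limma-voom, also with an unadjusted p under 0.05, and by edgeR in 16.1% of all tested genes. The 3 thrombocytopenic libraries lay apart from the 3 control libraries in 27 members (35.1%; 19 higher, 8 lower), against 51.3% of all tested genes (25.2% higher, 26.0% lower).

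**Figure D1:**
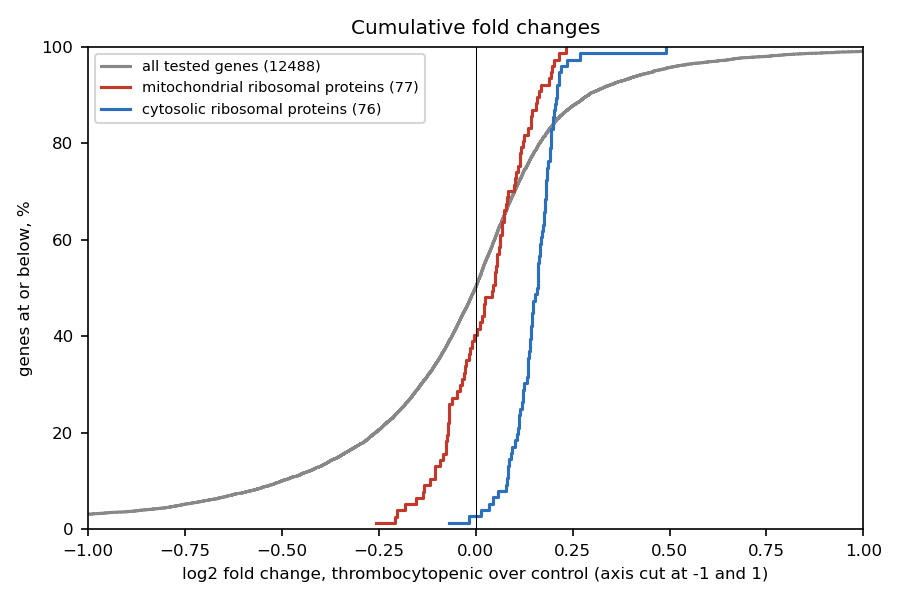
Cumulative share of genes (y axis, percent) at or below a log2 fold change, thrombocytopenic over control (x axis), for all 12488 tested genes (grey), the 77 mitochondrial ribosomal protein genes (red) and 76 cytosolic ribosomal protein genes (blue); the x axis ends at -1 and 1. The red curve runs from -0.26 to 0.23, the grey curve is wider, with quartiles at -0.19 and 0.13, and the blue curve lies to the right, with a median of 0.16.

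The fold changes of most members that did not pass were also narrowly bounded: of these 57, 54 had a 95% interval that lay within 1.3-fold in either direction. Over all 77, the interval lay within 1.3-fold for 73 and within 1.5-fold for every one. The plot of fold changes by member shows them in order. Mrpl23 (0.20) and Mrps36 (-0.21), which did not pass, lie among or beyond members that did, and their intervals are wide.

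**Figure D2:**
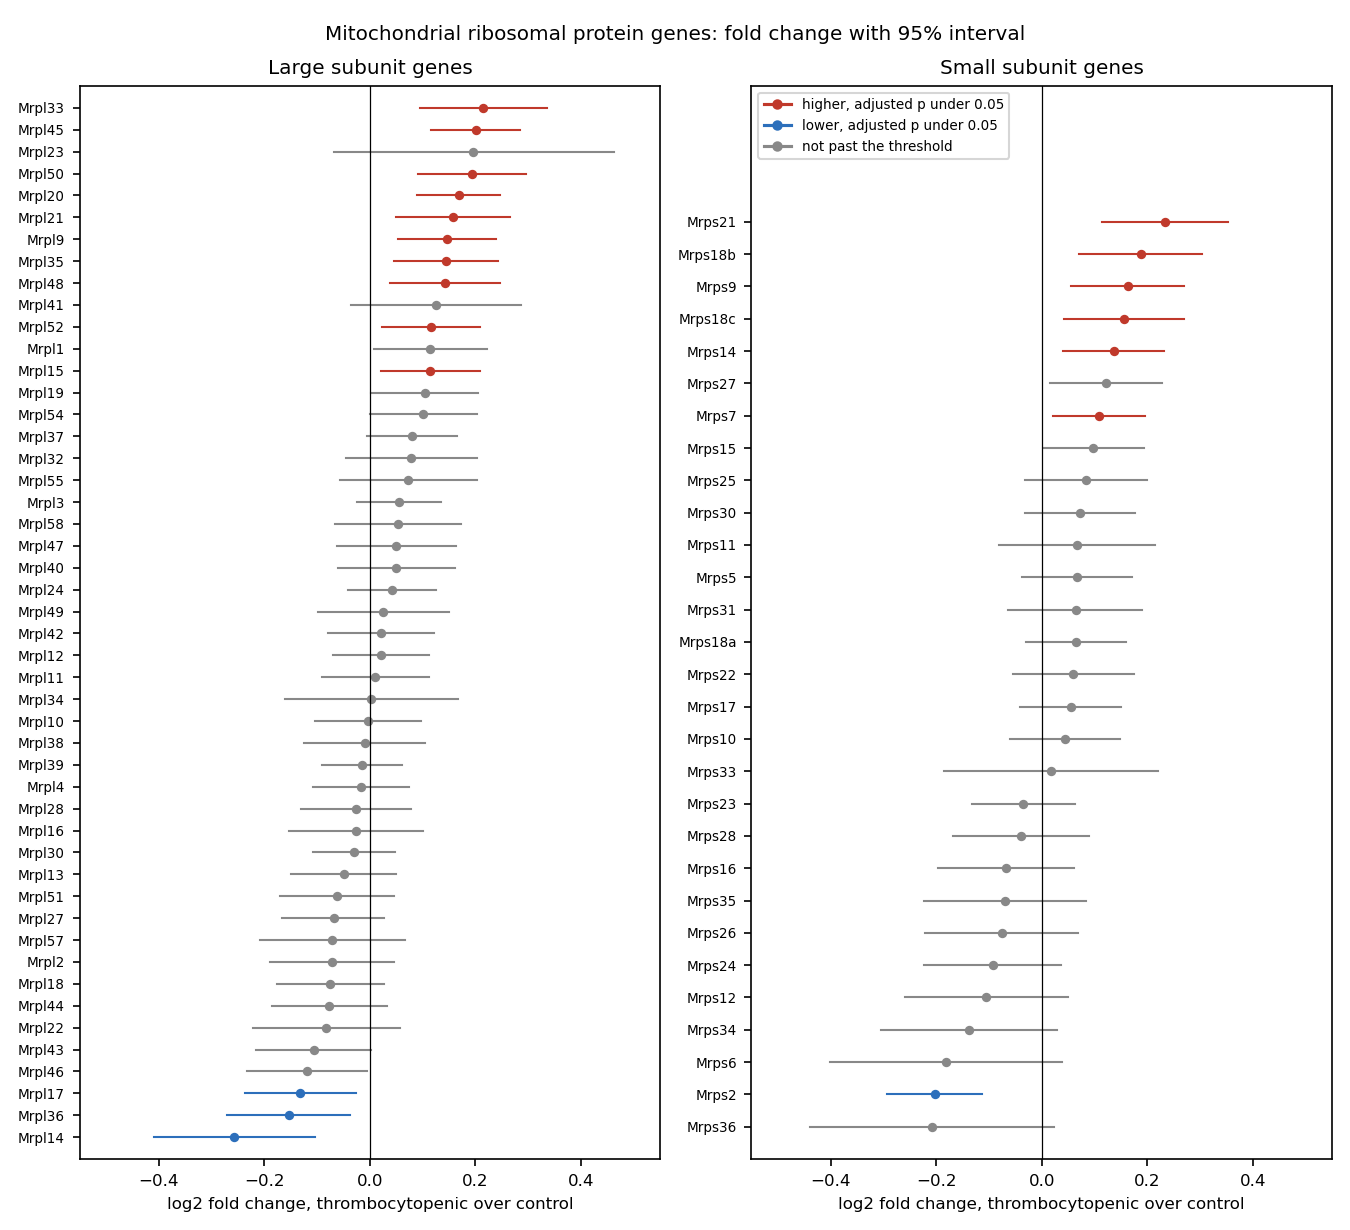
Log2 fold change, thrombocytopenic over control, of each of the 48 tested large subunit genes (left) and 29 small subunit genes (right), as points with 95% intervals from the edgeR fit. Red marks genes that rose and blue genes that fell at an adjusted p under 0.05; the lowest value was that of Mrpl14 (-0.26) and the highest that of Mrps21 (0.23).

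Of 48 tested large subunit genes, 10 rose (20.8%, against 22.4% of all tested genes) and 3 fell (6.25%, against 22.7%), with a median log2 fold change of 0.02. Mrpl45, the protein at the exit of the peptide tunnel that holds the ribosome to the inner membrane, had the smallest p. It stood at 57.9, 53.4 and 52.4 CPM in control libraries 1 to 3 and at 65.6, 59.2 and 62.7 CPM in thrombocytopenic libraries 1 to 3. Every thrombocytopenic library lay above every control library, by a log2 fold change of 0.20 (SE 0.042, edgeR adjusted p = 7.6e-05). Mrpl20, a protein with a bacterial counterpart, stood at 54.97, 60.05 and 59.2 CPM in controls and at 66.05, 65.3 and 64.9 CPM in thrombocytopenic libraries. Its groups were apart as well, with little spread in the thrombocytopenic group (log2 fold change 0.17, SE 0.039, adjusted p = 0.000293). Mrpl50, a protein added in the mitochondrial lineage, stood at 26.8, 27.3 and 26.0 against 31.6, 30.0 and 30.1 CPM (log2 fold change 0.19, adjusted p = 0.0013). Mrpl33, which has a bacterial counterpart, stood at 17.8, 19.9 and 18.1 against 22.9, 21.1 and 21 CPM (0.21, adjusted p = 0.00262). In both, the groups were apart. All 4 passed the test in each of the 16 other fits that were run.

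The other 6 large subunit genes that rose did so by 8.25% to 11.6%. They were Mrpl9, Mrpl21, Mrpl35 and Mrpl15, which have bacterial counterparts, Mrpl48 of the central protuberance, and Mrpl52. Mrpl9 stood at 38.6, 36.9 and 35.7 CPM in controls and at 42.1, 39.3 and 41.4 CPM in thrombocytopenic libraries (log2 fold change 0.15, adjusted p = 0.00732). Mrpl21 stood at 29.3, 29.6 and 28.03 against 35.3, 29.7 and 31.7 CPM, so that thrombocytopenic library 2 lay barely above the highest control; without thrombocytopenic library 1 its adjusted p was 0.239. Mrpl35 (0.14, adjusted p = 0.0138), Mrpl48 (0.14, adjusted p = 0.0219) and Mrpl15 (0.11, adjusted p = 0.0395) had groups that were apart. Mrpl52 (0.12, adjusted p = 0.0372) had overlapping groups. Mrpl52 and Mrpl15 came after the 8 smallest p-values that the naming rule takes, and are named to complete the count.

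The 3 large subunit genes that fell all have bacterial counterparts. Mrpl14, the protein to which the assembly factor Malsu1 binds, stood at 13.02, 14.1 and 13.3 CPM in controls and at 11.9, 9.75 and 12.1 CPM in thrombocytopenic libraries. All thrombocytopenic libraries were below the controls, library 2 most of all, and the log2 fold change was -0.26 (SE 0.076, adjusted p = 0.00442). Without that library it was -0.17 and did not pass (adjusted p = 0.0687). Mrpl36 stood at 21.5, 21.2 and 21.4 against 19.9, 18.9 and 18.7 CPM, which is a log2 fold change of -0.15 (adjusted p = 0.0263). Mrpl17 stood at 27.7, 27.3 and 29.6 against 26.1, 25.6 and 25.4 CPM, a log2 fold change of -0.13 (adjusted p = 0.0349). The groups were apart in both. Without thrombocytopenic library 2 no large subunit gene fell by the test, without thrombocytopenic library 3 or control library 3 only 1 did, and without thrombocytopenic library 1 the number that rose was 6.

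**Figure D3:**
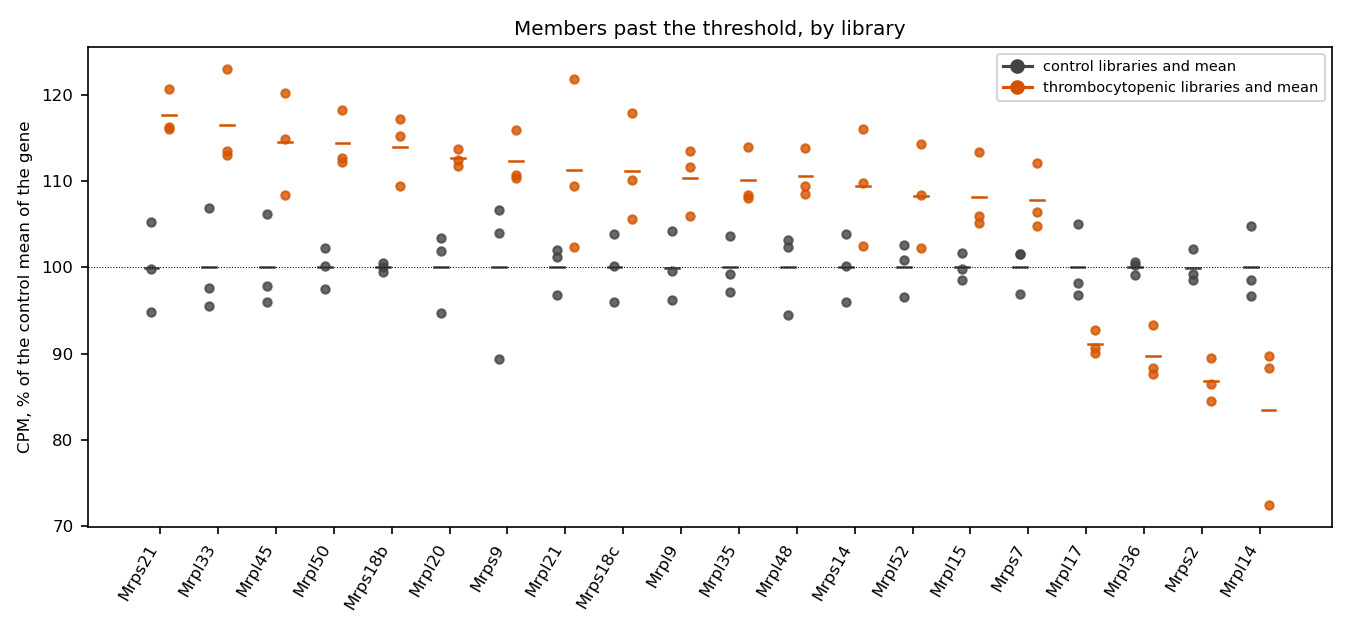
Level of the 20 members that passed the test (CPM as percent of the control mean of the gene, y axis not starting at 0) in 3 control libraries (grey points) and 3 thrombocytopenic libraries (orange points), with group means as short lines. In Mrpl45, Mrpl20, Mrpl50, Mrpl33 and Mrps21 every thrombocytopenic library lies above every control library, and in Mrps2 and Mrpl14 every one lies below.

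Of 29 small subunit genes, 6 rose (20.7%, against 22.4% of all tested genes) and 1 fell (3.45%, against 22.7%), with a median log2 fold change of 0.06. Mrps21, a protein with a bacterial counterpart, showed the largest rise of all members. It stood at 17.6, 18.5 and 19.5 CPM in controls and at 21.5, 21.5 and 22.3 CPM in thrombocytopenic libraries, a log2 fold change of 0.23 (SE 0.059, edgeR adjusted p = 0.000859). Mrps2, which also has a bacterial counterpart, was the gene that fell. It stood at 41.7, 42.0 and 43.2 CPM in controls and at 35.7, 36.6 and 37.9 CPM in thrombocytopenic libraries, a log2 fold change of -0.20 (SE 0.045, adjusted p = 0.000156). The groups were clearly apart in both genes, in opposite directions.

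The other small subunit genes that rose were Mrps18b, Mrps9, Mrps18c, Mrps14 and Mrps7, all with bacterial counterparts. Mrps18b stood at 18.9, 18.8 and 19.0 CPM in controls and at 21.8, 22.2 and 20.7 CPM in thrombocytopenic libraries (log2 fold change 0.19, adjusted p = 0.00651). Mrps9 stood at 25.7, 29.9 and 30.7 against 33.4, 31.9 and 31.8 CPM (0.16, adjusted p = 0.01), with control library 1 far below the other controls; without it the adjusted p was 0.175. Mrps18c stood at 23.0, 22.2 and 21.3 against 26.1, 24.4 and 23.4 CPM (0.16, adjusted p = 0.02). Its groups lay close together but apart. Mrps14 (0.14, adjusted p = 0.0165) had overlapping groups, and Mrps7 (0.11, adjusted p = 0.0372) had groups that were apart. Without thrombocytopenic library 1 the number of small subunit genes that rose was 2, without control library 2 it was 3, and without thrombocytopenic library 3 the number that fell was 2.

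Mammals have several paralogs of bacterial S18, Mrps18a, Mrps18b and Mrps18c. Mrps18b and Mrps18c rose, while Mrps18a, which sits in the large subunit despite its symbol, stood at 37.5, 34.1 and 36.9 against 38.0, 36.9 and 38.1 CPM, with overlapping groups (log2 fold change 0.06, 95% interval -0.03 to 0.16, adjusted p = 0.28). Mrps30, another large subunit protein with a small subunit symbol, had a log2 fold change of 0.07 (95% interval -0.03 to 0.18, adjusted p = 0.263). Mrps36, now known as a subunit of the 2-oxoglutarate dehydrogenase complex and not of the ribosome, stood at 5.42, 4.75 and 5.96 against 4.72, 4.06 and 5.03 CPM, also with overlap (-0.21, adjusted p = 0.143). With members placed by structure, the large subunit had 50 tested genes, 10 higher and 3 lower, and the small subunit 26, of which 6 were higher and 1 lower.

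Members with known functions that did not pass include both stalk genes. Mrpl12, which recruits translation factors, stood at 37.5, 38.4 and 37.3 CPM in controls and at 39.5, 37.9 and 37.5 CPM in thrombocytopenic libraries, and the groups overlapped. Its log2 fold change was 0.02 with a 95% interval of -0.07 to 0.11; with upper quartile scaling it was -0.004. Mrpl10, which anchors Mrpl12, had 35.3, 35.1 and 33.9 against 36.9, 35.2 and 31.9 CPM and a log2 fold change of -0.004 (95% interval -0.10 to 0.10). Mrpl58, a hydrolase that frees peptides from stalled ribosomes, was at 0.05 (95% interval -0.07 to 0.17). In the small subunit, Mrps12 of the decoding centre was at -0.10 (95% interval -0.26 to 0.05), Mrps16 at -0.07 and Mrps22 at 0.06. Mutations of the latter pair in people cause defects of oxidative phosphorylation. The members with the largest p-values were Mrpl34 (0.003) and Mrpl10 of the large subunit and Mrps28 (-0.04) and Mrps33 (0.02) of the small subunit.

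By origin, 16 of 45 tested members listed here as having a bacterial counterpart passed (12 higher, 4 lower, 35.6%). Of 31 tested members not on that list, Mrps36 left out, 4 passed (12.9%). These were Mrpl45, Mrpl50, Mrpl48 and Mrpl52, all higher. The list may miss counterparts, and the shares depend on it. Mrpl47, Mrpl55 and Mrps28, for example, were counted as not listed and did not pass. Both shares lie below the 45.1% of all tested genes, and the difference between them was not tested.

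Mrpl53, a protein of the large subunit, had 0 counts in each of the 6 libraries, where 3 counts would be 0.0799 to 0.121 CPM. In the GENCODE M21 annotation, 88.0% of its exon bases lie within exons of Gm42688 on the same strand, and Gm42688 had 12 to 30 counts. The 0 limits only the reads assigned to Mrpl53, and its RNA level was not measurable. Exon bases shared with other genes were found for 33 members on either strand and for 8 on the same strand, among them Mrps18c (23.2%, with Gm43511), while Mrps18b shared 30.5% with Gm16279 on the opposite strand. Values of such members are uncertain, since the strand setting of the counting is unknown. Among the 45 members that share no exon base, 9 rose and 2 fell (24.4%, against 45.1% of all tested genes). The 6 genes named as pseudogenes of members had at most 15 counts in any library.

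Summed levels compared the subunits within each library. Large subunit genes summed to 1422, 1448 and 1441 CPM in controls and to 1499, 1447 and 1478 CPM in thrombocytopenic libraries, a mean of 1437 ± 13.1 against 1475 ± 26.1 CPM (SD, n = 3 each). Small subunit genes summed to 633.7, 642.1 and 659.9 against 676.8, 647.0 and 672.1 CPM, a mean of 645.2 ± 13.4 against 665.3 ± 16.0 CPM. The means were 2.63% and 3.11% higher in the thrombocytopenic group, and the groups overlapped for both subunits. Placed by structure, the large subunit sums did not overlap, at 1486 to 1508 against 1511 to 1565 CPM. The ratio of large to small subunit sums was 2.23 ± 0.038 in controls and 2.22 ± 0.019 in thrombocytopenic libraries (SD, n = 3 each). Its difference of -0.011 was smaller than either SD, and its sign turned without control library 2 (0.00277).

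**Figure D4:**
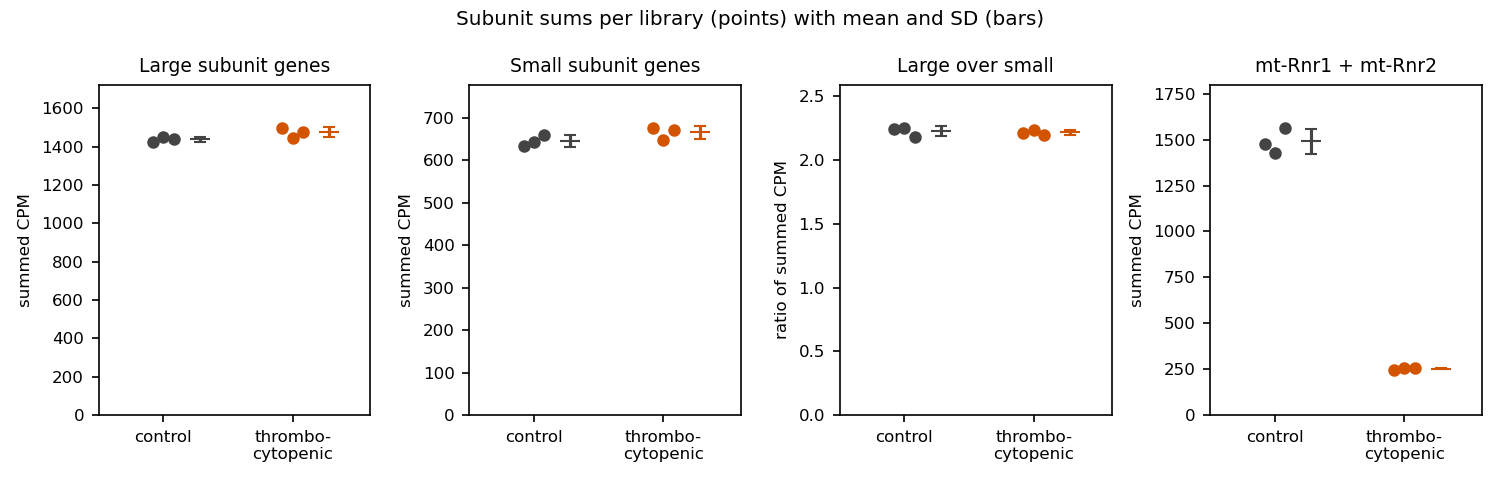
Summed level per library (CPM, points) of large subunit genes, small subunit genes and the mitochondrial ribosomal RNA genes mt-Rnr1 and mt-Rnr2, and the ratio of large to small subunit sums, for 3 control (grey) and 3 thrombocytopenic (orange) libraries, with means and SD as bars beside the points. The protein gene sums overlap between groups, and the RNA sums lie at 1429 to 1566 CPM in controls and 247.5 to 257.9 CPM in thrombocytopenic libraries.

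The ribosomal RNAs of the same particle differed far more. The small subunit RNA, mt-Rnr1, stood at 467, 455.5 and 496 CPM in controls and at 87.3, 89.6 and 88.7 CPM in thrombocytopenic libraries, 5.34-fold lower (log2 fold change -2.42, SE 0.031, edgeR adjusted p = 4.64e-50). The large subunit RNA, mt-Rnr2, stood at 1010, 973.8 and 1070 against 160.2, 165.1 and 169.3 CPM, 6.18-fold lower (-2.63, SE 0.031, adjusted p = 5.38e-42). No protein gene of the ribosome moved to a like extent. Libraries were made from RNA captured on oligo-dT, so these values are of captured RNA, and whether capture of these RNAs differed between the groups was not tested. Of the 13 mRNAs encoded in mitochondrial DNA, 6 had at most 2 counts in any library and were not tested. The 7 others made up the sum of 5901 to 6950 CPM in controls and 6845 to 7216 CPM in thrombocytopenic libraries, with overlap, and of these mt-Cytb, a respiratory chain subunit, rose (log2 fold change 0.20, adjusted p = 2.48e-06). With all mitochondrially encoded genes left out, a check chosen after the data were seen, the same 20 members passed in the same directions.

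Levels between genes were compared per kilobase of the principal transcript in GENCODE M21, which may not be the annotation used for counting. Where several transcripts shared the best principal rank, the longest was taken. Over control libraries, large subunit genes ranged from 3.86 to 90.9 CPM per kilobase with a median of 20.6, and small subunit genes from 2.87 to 40.9 with a median of 14.0. In thrombocytopenic libraries the medians were 19.7 and 13.5. Mrpl52 was highest (90.9 ± 2.81 CPM per kilobase in controls, 98.5 ± 5.43 in thrombocytopenic libraries; SD, n = 3), followed by Mrpl20 (76.0 and 85.6) and Mrpl30 (59.0 and 57.8). Mrps35 (2.87 and 2.71), Mrps26 (3.33 and 3.15), Mrps25 (3.65 and 3.86) and Mrpl17 (3.86 and 3.52) were lowest. Their levels were divided by transcripts of 4162, 4278, 6073 and 7300 bases, and that of Mrpl52 by 418 bases. The order and range per kilobase thus depend on the transcript chosen. Without division by length, Mrps25 stood at 22.15 and Mrpl17 at 28.19 CPM in controls, and Mrpl23 was the lowest tested member (3.44 CPM). Per kilobase, the highest control level (Mrpl52) was 31.7 times the lowest (Mrps35). The order per kilobase was nearly the same in both groups (Spearman's rho 0.993 over 77 genes, which share libraries and lengths, as a description). With genes ordered by their mean over all 6 libraries, only 5 of 76 neighbouring pairs had levels apart. Libraries of both groups were pooled for this, so the spread within a gene includes any difference between the groups. The log2 fold change had a rho of 0.29 with mean level and of 0.07 with transcript length over the same genes.

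**Figure D5:**
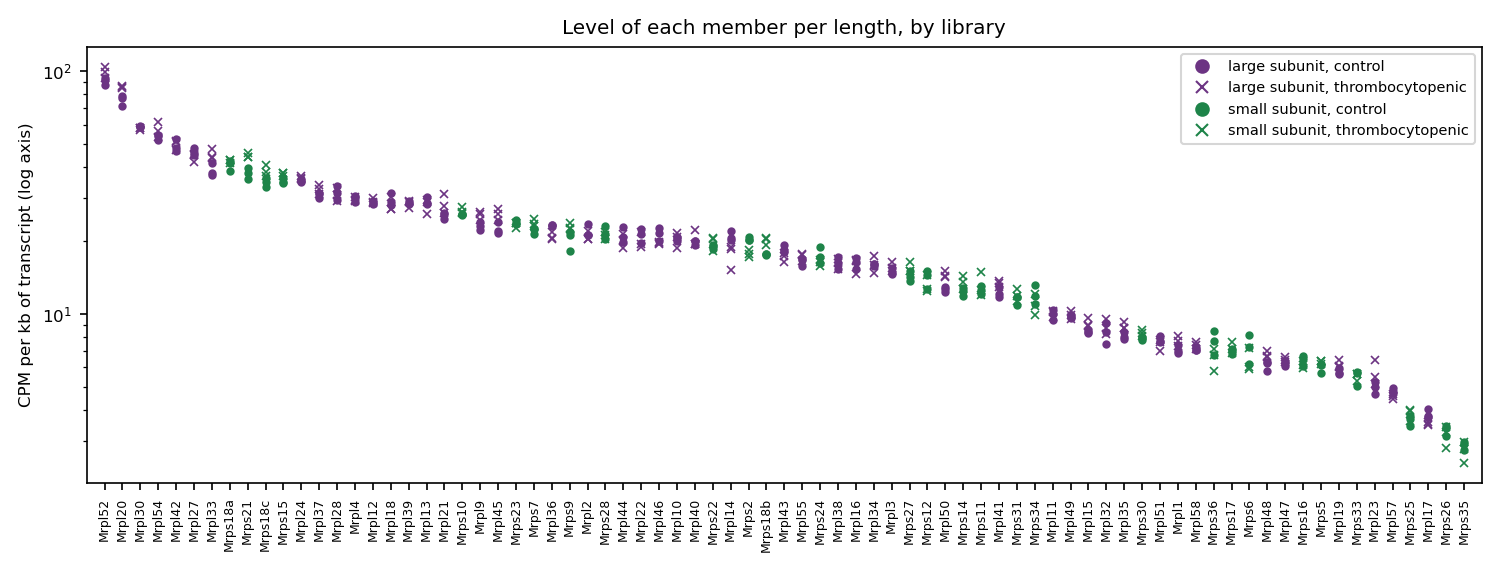
Level per length of each tested member (CPM per kilobase of the principal transcript, log axis) in each control library (dots) and thrombocytopenic library (crosses). The large subunit is in purple and the small subunit in green, in order of the mean over all 6 libraries. Levels span from 2.87 (Mrps35) to 90.9 (Mrpl52) in controls, and the order is nearly the same in both groups (rho 0.993).

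Of the mitoribosome proteins, 5 carry other names. Dap3, a GTP-binding protein of the small subunit, rose, from 37.3, 38.1 and 38.7 CPM in controls to 41.8, 41.9 and 41.1 CPM in thrombocytopenic libraries (log2 fold change 0.13, edgeR adjusted p = 0.0143). Chchd1 (0.22, adjusted p = 0.109), Ptcd3 (-0.06), Gadd45gip1 (-0.04) and Aurkaip1 (0.006) did not pass. Chchd1 passed in 4 other fits, with no filter on low counts (adjusted p = 0.000187), with the fit that is not robust (0.00668), without thrombocytopenic library 2 (log2 fold change 0.30, adjusted p = 7.65e-05) and without control library 2 (0.31, adjusted p = 0.00157).

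The machinery that works with the ribosome was described by lists of known genes, whose shares of passing genes are to be read against the 45.1% of all tested genes. Of 16 tested translation factors of 17, 2 rose and 1 fell (18.8% passed), with a median log2 fold change of -0.01: the initiation factor Mtif2 (0.20, adjusted p = 0.00102) and the elongation factor Gfm1 (0.10, adjusted p = 0.0275) rose, and Oxa1l, which inserts new proteins into the inner membrane, fell (-0.11, adjusted p = 0.0455). Of 27 assembly factors, 2 rose and 4 fell (22.2% passed, median 0.03). Grsf1, an RNA-binding protein of mitochondrial RNA granules, fell from 89.4, 88.0 and 88.3 to 76.0, 75.5 and 72.9 CPM (-0.24, adjusted p = 3.95e-08). Trub2 (-0.20, adjusted p = 0.00437) and Mtg1 (-0.26, adjusted p = 0.0216) fell too, while Mterf3, which binds mitochondrial DNA, rose (0.20, adjusted p = 0.00107). Of 20 genes for charging mitochondrial tRNAs, 3 passed: Yars2 rose (0.22, adjusted p = 0.009), Iars2 (-0.12, adjusted p = 0.0174) and Pars2 (-0.35, adjusted p = 0.0213) fell, and the median was -0.03. Of 7 mitochondrial transcription genes, 0 passed by edgeR, DESeq2 or limma-voom, and 0 had an unadjusted p under 0.05; Tfam, which packages mitochondrial DNA and starts its transcription, was at -0.13 (adjusted p = 0.115). Tfam passed as lower without thrombocytopenic library 1 (-0.18, adjusted p = 0.0329), without control library 2 (-0.18, adjusted p = 0.0367) and with replicate number as a block (-0.14, adjusted p = 0.0442).

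Nuclear factors known to act on genes for mitochondrial proteins were another list, in which 5 of 8 tested genes rose and 1 fell, where 45.1% of all tested genes passed in either direction. Yy1, whose core motif is printed for Mrpl36, stood at 75.8, 75.4 and 79.1 CPM in controls and at 93.2, 91.4 and 93.5 CPM in thrombocytopenic libraries (log2 fold change 0.27, edgeR adjusted p = 1.82e-09). The coactivator Pprc1 (0.23, adjusted p = 1.04e-06), the nuclear receptor Esrra (0.20, adjusted p = 0.000121), Myc (0.17, adjusted p = 0.00753) and Nrf1 (0.11, adjusted p = 0.0359) rose. The coactivator Ppargc1b fell (-0.44, adjusted p = 0.0287), from a level of 2.33 to 3.92 CPM in controls to 2.12 to 2.94 CPM, with overlap. Gabpa (0.01) and Gabpb1 (-0.05), the subunits of the ETS factor GABP, did not pass. Nrf1, Ppargc1b, Gabpa and Gabpb1 lie outside the rule for naming and are given, after their values were seen, to complete the tested genes. Ppargc1a, also among the 9 genes listed, had 0 counts in every library and was not tested.

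Other gene families with a like role served as a yardstick. Of 76 tested cytosolic ribosomal protein genes, 66 rose (86.8%), with a median log2 fold change of 0.16, against 0.04 for the mitochondrial ribosomal proteins. Of 37 tested nuclear genes for subunits of respiratory complex I, whose mitochondrially encoded subunits the mitochondrial ribosome makes, 8 rose (21.6%), with a median of 0.06. The complex I share was near the 22.4% of all tested genes that rose, and so was the 20.8% of the mitochondrial ribosomal protein genes. No test of the difference between families was made.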

How the data were processed

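Gene counts of 6 polyadenylated RNA libraries from mouse blood monocytes were used, with groups and replicate numbers from the labels. As deposited, each file held raw read counts, as whole numbers with a different total in each library. The submitters' processing notes name STAR 2.7.9a, Salmon 1.5.2, featureCounts, Subread 2.0.1 and fastp 0.23.1. Which step each tool did, the genome build, the annotation and the strand setting are not given in sources used here, although the library kit marks strand, per the labels' protocols. How reads in overlapping genes were counted is not known.

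Counts were analysed in R 4.3.3. Genes passed filterByExpr (minimum count 10, minimum total 15), which left 12488 of 56832. TMM factors were 0.9943 to 1.002. The test was the robust, two-sided quasi-likelihood test of edgeR 4.0.16, with Benjamini-Hochberg adjustment over all tested genes and a threshold of 0.05. Standard errors and 95% intervals come from that fit. Tested members had 86 to 2498 counts per library; the limit for a gene with 0 counts covers counting error only, because reads copied by PCR are not separate molecules. Libraries within groups differed beyond sampling noise (chi-square per degree of freedom 1.89 to 3.24), so none was treated as a library deposited again. Steps were tested on simulated data. Of 50 genes changed 1.1-fold, 12 were recovered, against 34 of 50 at 1.25-fold and 45 of 50 at 1.5-fold. Among 12288 unchanged genes, 5 were called. Changed genes were drawn from all tested genes, so recovery at the levels of the members was not measured.

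Members and gene lists were chosen with earlier results of these data known. Named genes are, per subunit and direction, up to 8 members with the smallest p among those that passed, the 2 with the largest p, untested members, a list of genes always considered, and up to 4 genes per other list with the smallest p. Alternatives were RLE, upper quartile and total-count scaling, other filters, DESeq2 1.42.0, limma-voom (limma 3.58.1), a fit that is not robust, a stricter threshold, a replicate block, subunits by structure and leaving out each library. GENCODE M21 gave lengths and overlaps, RefSeq (GRCm38.p6) the promoters.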

Additional observations from a re-analysis of the deposited data

How the results depend on the processing

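All 20 members that passed kept their direction in all 16 other fits, and Mrpl45, Mrpl20, Mrpl50, Mrpl33, Mrps2, Mrps21 and Mrps18b passed in each. The other 13 failed to pass in at least 1 fit, and the cause was not tested. Members that rose numbered 10 with upper quartile scaling, 9 with DESeq2, 7 at an adjusted p under 0.01 and 9 among members sharing no exon base, a check chosen after the data were seen in which fewer members are tested; those that fell numbered 6, 2, 2 and 2. For the large subunit, DESeq2 gave 6 higher and 1 lower, the stricter threshold 5 and 1, and upper quartile scaling 5 lower. For the small subunit, 3, 3 and 2 rose with upper quartile scaling, DESeq2 and the stricter threshold. The difference in the large to small ratio was 0.0084 as a difference of mean log2(CPM + 0.01).

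Leaving out 1 library gave 8 to 18 members higher and 1 to 5 lower, 6 to 11 and 0 to 4 in the large subunit, 2 to 7 and 1 to 2 in the small subunit, and a ratio difference of -0.032 to 0.00277. In these fits 16.9% to 24.7% of members passed, against 39.6% to 42.5% of all tested genes. Members that rose numbered 8 without thrombocytopenic library 1 and 10 without control library 2; those that fell numbered 1 without thrombocytopenic library 2 and 2 without control library 3.

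Libraries with the same replicate number did not deviate together (correlations -0.04, -0.09 and -0.01), so the numbers were not taken as a pairing. With the replicate block 14 members rose and 4 fell (23.4%, against 43.3% of all tested genes). Mrpl15 and Mrps7 no longer passed.

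Over 57 named genes, 909 values from other fits were obtained: 817 kept direction and side of the threshold, 66 no longer passed, 8 newly passed (Chchd1 in 4 fits, Tfam in 3, Qrsl1 in 1) and 18 changed sign. At an adjusted p under 0.01 in the same fit, 15 of the 57 no longer passed. The sign changes were in uncalled genes near 0: Mrpl34 (-0.021 with upper quartile scaling, -0.002 with library totals, -0.001 with a filter of 1 CPM, -0.004 with the block, -0.061 to 0.055 without 1 library), Mrps33 (-0.007 with upper quartile scaling, -0.054 to 0.052 without 1 library), Mrpl12 (-0.004 and -0.003 to 0.038), Aurkaip1 (-0.018 and -0.035 to 0.045), Mrpl10 (-0.053 to 0.055 without 1 library) and Mrps28 (-0.08 to 0.016). Mrpl23 had the fewest counts of the tested members in a library (86 to 160 counts).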
